A study of Homo sapiens with 6 samples.

Results

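Actin, the protein of microfilaments, is handled in cells as single subunits and as filaments. The 10 genes described here encode the 2 cytoplasmic actins, ACTB and ACTG1, and the proteins that bind actin monomers, namely the profilins PFN1 and PFN2, the ADF/cofilins CFL1, CFL2 and DSTN, the beta-thymosins TMSB4X and TMSB10, and the cyclase-associated protein CAP1. They were taken by symbol from a table of 30230 genes, each symbol had 1 row, and all 10 were among the 17076 genes that passed the filter on low counts. The cells were the human lung adenocarcinoma line A549. There were 3 negative control libraries (NC) and 3 libraries after silencing of FSCN1, which encodes the filament-bundling protein fascin (siFSCN1). By the study's methods both groups received siRNA, a scrambled sequence in NC and a single FSCN1 sequence in siFSCN1, while the labels of the NC samples name a control plasmid. The libraries were sequenced from polyadenylated RNA, and the comparison asks how the transcripts of the actin monomer pool differ once fascin transcripts are reduced. With a single FSCN1 sequence, effects of lower FSCN1 and other effects of that siRNA cannot be told apart.

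In cells, profilin catalyses the exchange of the nucleotide on actin and brings the monomer to growing filament ends, where formins and Ena/VASP proteins accept it. Beta-thymosins hold monomers in reserve. ADF/cofilins cut and disassemble old filaments, and CAP proteins strip cofilin from the spent monomer so that it can be used again. Actin genes are also under feedback, since free monomers hold back MRTF, the coactivator of the transcription factor SRF, which binds the CArG box in the promoters of many cytoskeletal genes.

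The libraries held between 27967301 and 36560919 counts. FSCN1 had deposited FPKM (fragments per gene, divided by gene length and depth) of 45.0, 47.2 and 46.0 in NC and of 4.46, 2.82 and 3.19 in siFSCN1, so the targeted transcript followed the labels. All 7 epithelial markers examined reached 1 FPKM in at least 1 library, and their summed level was 3123 to 3503 FPKM in NC and 1769 to 2125 FPKM in siFSCN1. This sum was carried by the keratins KRT7, KRT8 and KRT18, and the 4 keratins were lower in every siFSCN1 library. The other 3 markers went the other way, CDH1 from 9.02 to 9.41 FPKM in NC to 25.9 to 26.7 FPKM in siFSCN1, and EPCAM and EGFR were also higher in every siFSCN1 library. The 4 alveolar type II markers, the 3 fibroblast, 2 endothelial and 2 muscle markers and the leukocyte marker stayed under 1 FPKM in every library, and SFTPB had no row. Mitochondrially encoded protein genes took 8.61% to 9.29% of counts in NC and 12.6% to 12.8% in siFSCN1, and the part of this difference in the results below was not tested. In such bulk samples fewer cells of a type and less RNA per cell cannot be told apart. The labels do not say whether the 3 libraries of a group came from separate cultures, though the study calls them biological replicates, so the p-values measure the spread between these libraries.

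Both actins are nearly the same protein from separate genes, and their coding sequences show which reads can tell them apart. The coding regions of the canonical transcripts (GENCODE v44) have 1128 bases each and differ at 99 of them, an identity of 91.2%, while the 3′ UTRs of 600 and 719 bases are 45.2% identical. The longest run of bases shared by the transcripts is 59. The first 30 coding bases, which hold the start of the protein where the isoforms are told apart, are shown with the 6 differing positions in capitals.
ACTB: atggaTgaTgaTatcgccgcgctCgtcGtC
ACTG1: atggaAgaAgaGatcgccgcgctGgtcAtT

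RefSeq promoters (GRCh38.p14, 250 bases before to 50 after the start) were found for 8 of the 10 genes, all but ACTB and PFN2. The CArG box, searched as CC, 6 bases of A or T, and GG, a pattern that reads the same on both strands, was present in that of ACTG1 and in none of the other 7. Of 35116 promoters of this length in the table, 454 (1.29%) held it, and by gene 438 of 27305 (1.60%) had it in at least 1 promoter. The box of ACTG1 began 94 bases before the start, at chr17:81512874-81512903 on the minus strand with 10 bases on either side, and is shown in capitals because ACTG1 is the gene that moved most.
ACTG1 promoter: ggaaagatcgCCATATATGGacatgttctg
The sequence TATAAA, on either strand, was in none of the 8, against 11.5% of all promoters and 13.99% of genes. A match is a description of these letters and not of binding.

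Under TMM scaling, which takes most genes as unchanged, 6 of the 10 genes fell after FSCN1 silencing, 4 did not pass the test, and none rose. Under some other scalings some of the 10 were higher, as given below. The 6 that fell were ACTG1, CFL2, PFN1, CAP1, CFL1 and DSTN, at an adjusted p under 0.05 in edgeR's quasi-likelihood test across all genes. Among all tested genes 33.2% were lower by this rule, 35.1% were higher and 68.3% passed in either direction. The CPM (counts scaled to library size) of the same 6 genes did not overlap between the groups, all with siFSCN1 below, against 34.4% of all tested genes lower, 36.8% higher and 71.3% in either direction. ACTG1 alone of the 10 fell at least 2-fold, against 4.85% of all tested genes (16.5% changed that much in either direction). The median log2 fold change of the 10 genes was -0.30, and that of all tested genes 0.03. Most of the 10 are abundant, and abundant genes were more often lower. At a mean of 100 FPKM or more there were 320 tested genes, of which 81.9% were lower at an adjusted p under 0.05, 10.9% higher and 92.8% either, and 7.5% fell at least 2-fold. In CPM, 81.6% of the 320 lay lower without overlap and 92.5% in either direction. Their median log2 fold change was -0.41. Of the 7 described genes at this level, 4 were lower, all 4 also without overlap, and 1 fell at least 2-fold, with a median of -0.24. Their share of lower genes was not above that of genes of like abundance.

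**Figure D1:**
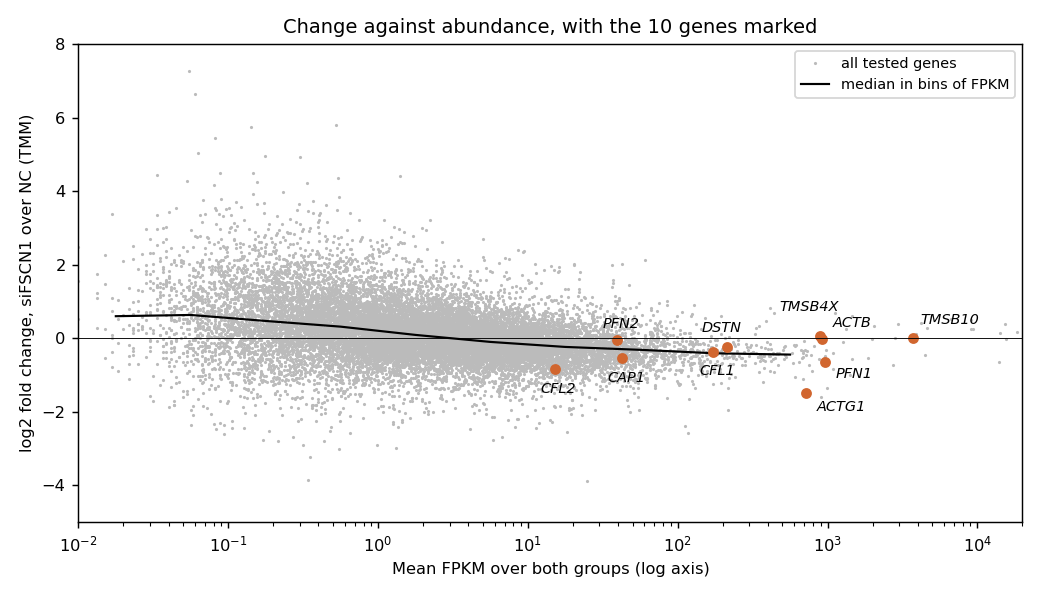
Log2 fold change of siFSCN1 over NC under TMM scaling against mean FPKM on a log axis, with 1 grey point per tested gene, a line for the median in bins of FPKM, and the 10 genes in orange. The line falls toward abundant genes, ACTG1 lies below it at -1.48, and ACTB, TMSB4X and TMSB10 lie above it near 0.

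The actins, which form the filaments, went apart. ACTG1, the gene of gamma-actin (ENSG00000184009.13, minus strand of chromosome 17 at 81509413 to 81523847), had 1019, 1039 and 1014 FPKM in NC and 449, 394 and 391 FPKM in siFSCN1. All siFSCN1 libraries lay below all NC libraries. ACTG1 fell by 1.48 on the log2 scale, (standard error 0.047, adjusted p 1.3e-14 in edgeR), which left 35.8% of the NC level. Among the 320 abundant genes, 5 had a lower log2 fold change. The study picked ACTG1 from genes that changed in these same libraries and also had FSCN1 binding peaks, so its fall here is no independent evidence. The study also reported lower ACTG1 by RT-qPCR after silencing, which was not examined here.

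ACTB, the gene of beta-actin (ENSG00000075624.17, minus strand of chromosome 7 at 5526409 to 5563902), had 883, 881 and 867 FPKM in NC and 1008, 963 and 921 FPKM in siFSCN1. On this scale, which divides by the mapped fragments of a library, all siFSCN1 libraries were above all NC libraries, with a ratio of means of 1.10. Under TMM scaling, which takes most genes as unchanged, the groups overlapped, with NC at 4863 CPM ± 90.0 (SD, n = 3) and siFSCN1 at 4762 CPM ± 183 (SD, n = 3). ACTB had a log2 fold change of -0.030, a 95% interval of -0.12 to 0.06 and an adjusted p of 0.531 in edgeR. The direction for ACTB therefore depended on the scaling, and it was -0.048 with RLE, 0.088 with upper quartile, and 0.16 (adjusted p 0.000568) with library totals. These scalings also moved the median of all tested genes, from 0.03 to 0.01, 0.15 and 0.22, so that ACTB lay slightly below the median of all genes with each. With each library's trend with abundance removed, ACTB was instead at 0.37 (adjusted p 3.5e-09), against a median of all genes of -0.0039.

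The ratio of both actins within a library does not depend on scaling. ACTG1 over ACTB, each in FPKM, was 1.15, 1.18 and 1.17 in NC and 0.445, 0.409 and 0.424 in siFSCN1. In FPKM there was thus more ACTG1 than ACTB in every NC library and less in every siFSCN1 library. The size of the ratio depends on the lengths used, and with it how clearly ACTG1 exceeds ACTB in NC. The merged exons have 4405 bases for ACTB and 4052 for ACTG1, the canonical transcripts 1812 and 1919. The change of the ratio between groups does not depend on these lengths. The log2 difference of the ratio was -1.45. An exact permutation test (two-sided) gave p = 0.1, the smallest value 3 against 3 libraries allow, and 0.133 after adjustment over the 4 ratios tested, so this design cannot reach 0.05. ACTG1 gave 53.9% ± 0.263 (SD, n = 3) of the summed actin FPKM in NC, and its part in siFSCN1 was 29.9% ± 0.881 (SD, n = 3). The sum itself was 1902, 1920.2 and 1881 FPKM in NC and 1457, 1357 and 1312 FPKM in siFSCN1, 72.3% of the NC mean. Every siFSCN1 library was below every NC library in this sum, although ACTB alone was higher in FPKM.

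**Figure D2:**
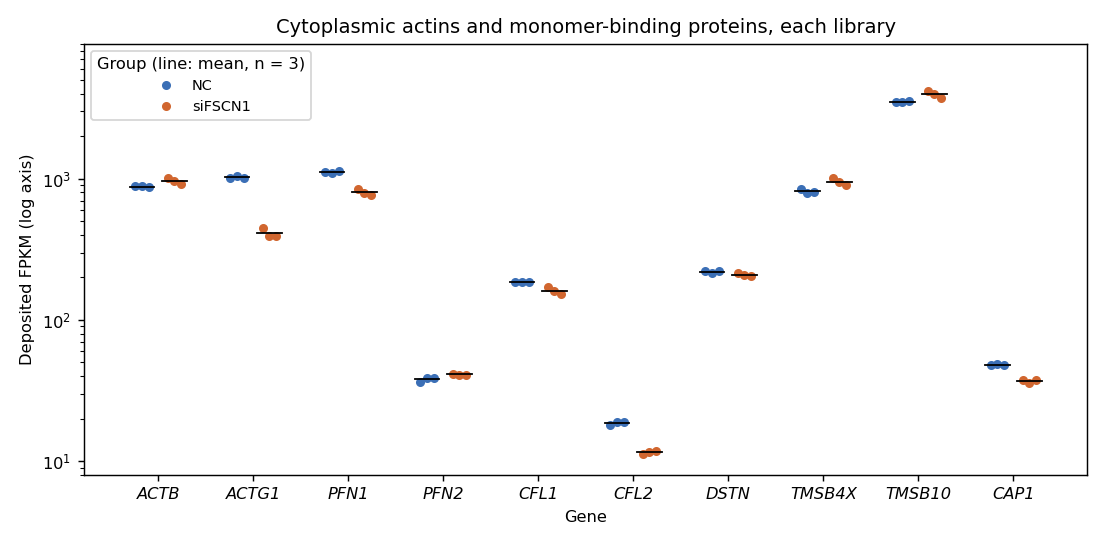
Deposited FPKM of the 10 genes on a log axis, with 1 point per library, NC in blue and siFSCN1 in orange, and a line at the mean of 3 libraries. ACTG1 drops from 1014 to 1039 FPKM in NC to 391 to 449 FPKM in siFSCN1, while ACTB, PFN2 and the beta-thymosins sit slightly higher on this scale but overlap under TMM scaling.

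Profilins exchange the nucleotide of the actin monomer, and PFN1 is the form found in most tissues, with PFN2 more common in the nervous system. PFN1 (ENSG00000108518.8, minus strand of chromosome 17 at 4945652 to 4949061) had 1117, 1096 and 1131 FPKM in NC and 849.9, 795 and 767 FPKM in siFSCN1, with no overlap. PFN1 fell by 0.64 on the log2 scale (standard error 0.040, adjusted p 1.1e-10), to 64.3% of the NC level. Among the 320 abundant genes, 81 had a lower log2 fold change than PFN1. PFN2 (ENSG00000070087.14, minus strand of chromosome 3 at 149964904 to 150050788) had 36.6, 38.5 and 39.0 FPKM in NC and 41.3, 41.0 and 41.0 FPKM in siFSCN1. The siFSCN1 libraries were above NC in FPKM and overlapped with NC under TMM, where the log2 fold change was -0.053, with a 95% interval of -0.13 to 0.03 and an adjusted p of 0.214. With library totals PFN2 was at 0.13 (adjusted p 0.00395). The ratio of PFN2 to PFN1 was 0.0327, 0.0351 and 0.0345 in NC and 0.0486, 0.0515 and 0.0535 in siFSCN1. The ratio was higher in all 3 siFSCN1 libraries, by 0.59 on the log2 scale (exact two-sided permutation p of 0.1, 0.133 adjusted), and PFN2 still gave only 4.87% ± 0.220 (SD, n = 3) of profilin FPKM in siFSCN1.

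The ADF/cofilins, which sever filaments, all fell under TMM scaling, to unequal degrees. CFL2, the muscle-type cofilin, was the least abundant and fell most. CFL2 (ENSG00000165410.15, minus strand of chromosome 14 at 34709113 to 34714823) had 17.9, 18.9 and 18.9 FPKM in NC and 11.3, 11.6 and 11.8 FPKM in siFSCN1. The groups did not overlap, and CFL2 fell by 0.85 on the log2 scale (standard error 0.044, adjusted p 9.1e-12), to 55.5% of the NC level. CFL1, the non-muscle cofilin (ENSG00000172757.13, minus strand of chromosome 11 at 65823022 to 65862026), had 186, 184 and 185 FPKM in NC and 171, 161 and 152 FPKM in siFSCN1. All siFSCN1 values lay below NC, with a log2 fold change of -0.37 (standard error 0.040, adjusted p 2.3e-07). DSTN, the gene of destrin or ADF (ENSG00000125868.16, plus strand of chromosome 20 at 17570075 to 17609919), had 220.2, 216 and 223 FPKM in NC and 214, 209 and 205 FPKM in siFSCN1. The fall of DSTN was the smallest that passed, -0.24 on the log2 scale (standard error 0.036, adjusted p 1.1e-05 in edgeR). It rested on the scaling, since with library totals it was -0.050 with an adjusted p of 0.176, and it turned to 0.11 (adjusted p 0.00257) once the abundance trend was removed. CFL1 was at -0.0045 (adjusted p 0.905) after that removal, and CFL2 at -0.66. Among the 320 abundant genes, whose median was -0.41, 181 had a lower log2 fold change than CFL1 and 223 a lower one than DSTN.

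Within this family CFL2 stood lower relative to CFL1 in every siFSCN1 library. The ratio of CFL2 to CFL1 in FPKM was 0.0962, 0.103 and 0.102 in NC and 0.0662, 0.0722 and 0.0773 in siFSCN1, a log2 difference of -0.48 (exact two-sided permutation p of 0.1, 0.133 adjusted). CFL2 made up 4.39% ± 0.153 (SD, n = 3) of ADF/cofilin FPKM in NC and, in siFSCN1, 3.03% ± 0.169 (SD, n = 3). In FPKM DSTN gave most of this sum, 51.9% ± 0.319 (SD, n = 3) in NC against 54.8% ± 0.726 (SD, n = 3) in siFSCN1. These parts depend on the length by which each gene is divided. The merged exons of CFL1 have 5865 bases and those of DSTN 3639, while the canonical transcripts have 1245 and 3405. In counts CFL1 was above DSTN in NC, with means of 40748 and 30032. The canonical transcript of CFL2 has a 3′ UTR of 3752 bases, that of CFL1 of 663 bases and that of DSTN of 2773 bases, and the coding regions of CFL1 and CFL2 are 70.1% identical.

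Beta-thymosins, summed in FPKM, were the most abundant family of monomer binders, and neither gene passed the test. TMSB10 (ENSG00000034510.6, plus strand of chromosome 2 at 84905656 to 84906671) had the highest FPKM of the 10 genes, at 3492, 3491 and 3556 FPKM in NC and 4180.5, 3959 and 3726 FPKM in siFSCN1. In counts its NC mean of 60803 lay below those of ACTG1 (155489), ACTB (144830) and PFN1 (66945). TMSB4X (ENSG00000205542.11, plus strand of chromosome X at 12975110 to 12977227) had 848, 790.0 and 805 FPKM in NC and 1012, 950.3 and 903 FPKM in siFSCN1. In FPKM every siFSCN1 library was above every NC library for both genes, and under TMM the groups overlapped. The log2 fold changes in edgeR were 0.0046 for TMSB10, with a 95% interval of -0.08 to 0.09 and an adjusted p of 0.925, and 0.063 for TMSB4X, with an interval of -0.03 to 0.16 and an adjusted p of 0.214. With library totals they were 0.19 (adjusted p 8.2e-05) and 0.25 (adjusted p 9.1e-06). The median of all genes was 0.22 with that scaling. With the abundance trend removed both were higher too, TMSB10 at 0.38 and TMSB4X at 0.44. Among the 320 abundant genes, TMSB4X had 36 and TMSB10 had 42 genes above it in log2 fold change, ACTB had 47, and ACTG1 had 314. The ratio of TMSB10 to TMSB4X was 4.12, 4.42 and 4.42 in NC and 4.13, 4.17 and 4.13 in siFSCN1, values that overlap (exact two-sided permutation p of 0.4). The size of this ratio depends on the lengths used, with merged exons of 461 bases for TMSB10 and 1703 for TMSB4X. In counts the NC means were 60803 and 52043.

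CAP1, which frees cofilin from spent monomers (ENSG00000131236.18, plus strand of chromosome 1 at 40040233 to 40072649), had 48.2, 48.6 and 47.9 FPKM in NC and 37.5, 35.9 and 37.5 FPKM in siFSCN1. The groups did not overlap. CAP1 fell by 0.55 on the log2 scale (standard error 0.036, adjusted p 2.3e-10), to 68.3% of the NC level. Tested genes between 10 and 100 FPKM, the range of CAP1, had a median of -0.26. ACTG1, PFN1, CFL2 and CAP1 were lower at an adjusted p under 0.05 in each of the 16 alternatives tried, CFL1 in all but the removal of the abundance trend.

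**Figure D3:**
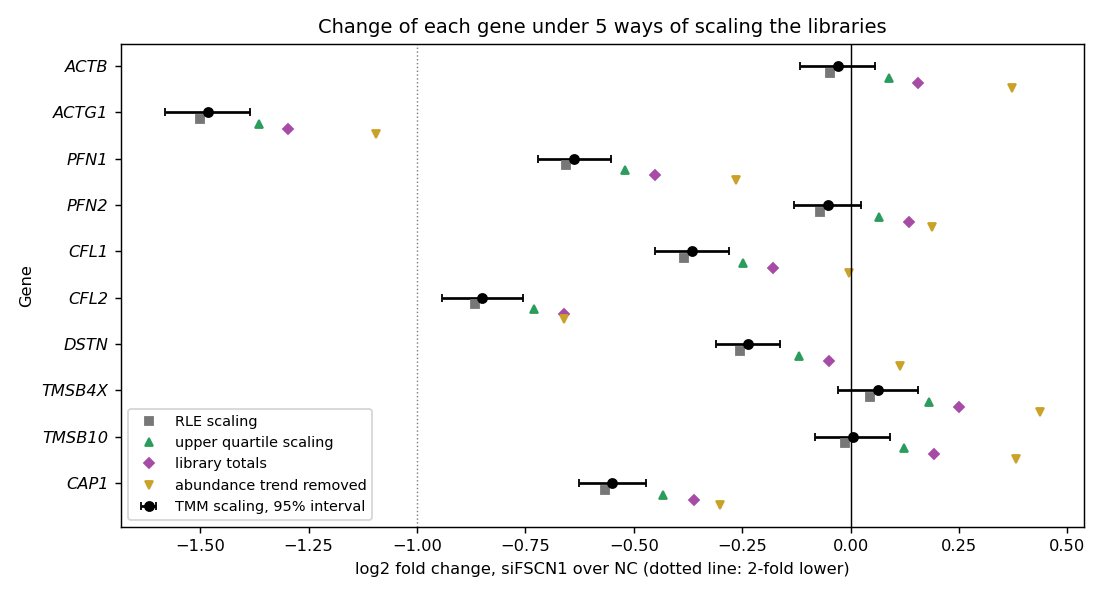
Log2 fold change of siFSCN1 over NC for each gene, with black points and 95% intervals for TMM scaling, grey or coloured marks for 4 other scalings, a solid line at 0 and a dotted line at 2-fold lower. ACTG1 lies beyond 2-fold lower under all 5, at -1.09 when the abundance trend is removed, while ACTB, PFN2, DSTN and TMSB10 have marks on both sides of 0.

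The order of levels per length also shifted. In NC the order in FPKM was TMSB10, PFN1, ACTG1, ACTB, TMSB4X, DSTN, CFL1, CAP1, PFN2 and CFL2, and no neighbours overlapped between libraries. Such an order, like the sums below, depends on the length by which each gene is divided. The merged exons of CFL1, TMSB4X and TMSB10 have 5865, 1703 and 461 bases, and their canonical transcripts have 1245, 622 and 461. The order and sums therefore hold for the deposited FPKM, and canonical lengths were not tried. In siFSCN1 ACTB and TMSB4X overlapped with each other and lay above PFN1 and ACTG1, and PFN2 lay above CAP1. Set against the summed actins, the 2 profilins stood at 0.606 ± 0.0157 (SD, n = 3) in NC against 0.615 ± 0.00252 (SD, n = 3) in siFSCN1, values that overlap. The 3 ADF/cofilins went from 0.223 ± 0.00429 (SD, n = 3) to 0.278 ± 0.00516 (SD, n = 3). The 2 beta-thymosins went from 2.28 ± 0.0445 (SD, n = 3) to 3.57 ± 0.0442 (SD, n = 3). All 8 binders together amounted to 3.14, 3.06 and 3.19 times the actin FPKM in NC and to 4.47, 4.54 and 4.45 times in siFSCN1, with no overlap. The 8 binders summed overlapped between groups, at 5966, 5883.5 and 6006 FPKM in NC and 6517, 6163 and 5842 FPKM in siFSCN1. In siFSCN1 the summed actins were at 72.3% of the NC mean, the profilins at 73.3%, the ADF/cofilins at 90.2% and the beta-thymosins at 113%. These sums over chosen genes are given without a test.

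**Figure D4:**
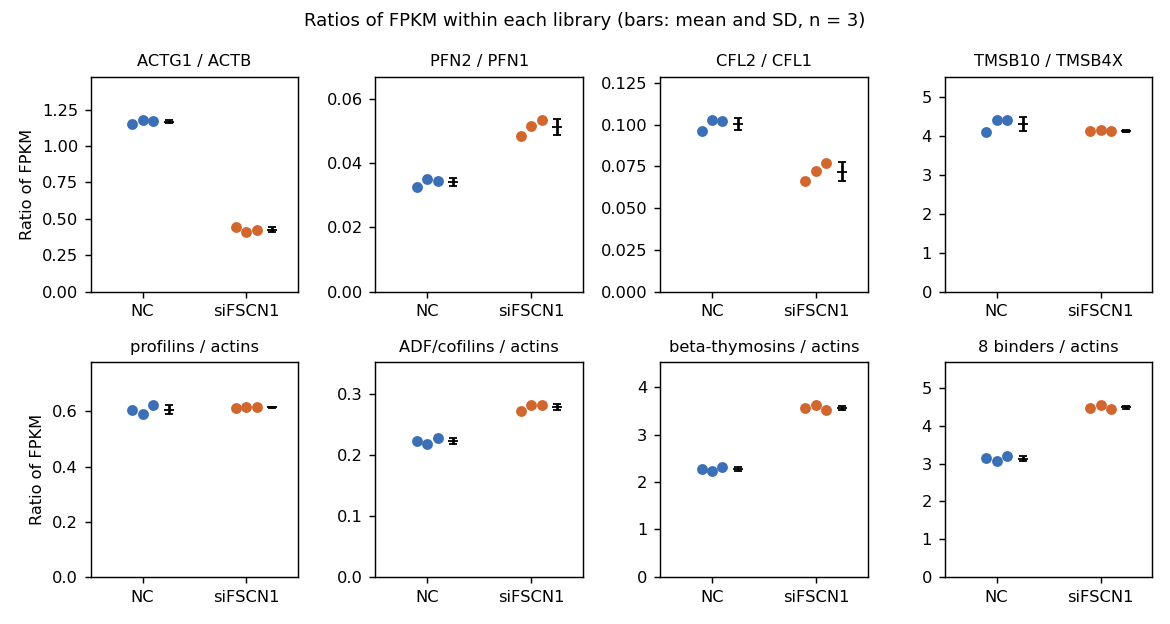
Ratios of FPKM within each library, with 1 point per library and bars for the mean and SD of 3 libraries. ACTG1 over ACTB goes from 1.15 to 1.18 in NC to 0.409 to 0.445 in siFSCN1, profilins over actins overlap near 0.6, and beta-thymosins over actins are higher in all 3 siFSCN1 libraries.

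How well reads can be placed differs among the genes, and the authors kept uniquely mapped reads. Of the 100-base windows of each canonical transcript, those found exactly elsewhere in GRCh38 were 39.2% for TMSB4X, 7.63% for PFN1, 2.33% for CAP1, 0.847% for DSTN and 0.175% for ACTB. For ACTG1, PFN2, CFL1, CFL2 and TMSB10 no window was found elsewhere. The level of TMSB4X is uncertain to the extent that reads from these windows were left out. Annotated genes lie over 7 of the 10, in part or whole. Opposite-strand neighbours include ENO3 at PFN1, SNX32 and MUS81 at CFL1, and TRABD2A at TMSB10, and ANKUB1 and a pseudogene lie over PFN2 on its own strand. The labels describe a kit that marks strand, but the strand setting of the counting was not stated, which leaves these 7 genes uncertain to that extent, while CFL2, TMSB4X and CAP1 have no such neighbour.

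Other genes of actin monomer handling were read from 7 lists, with 80 tested genes in all. Of these, 33 were higher and 27 lower at an adjusted p under 0.05, against 35.1% and 33.2% of all tested genes, shares that also stand behind the counts of each list. At least 2-fold, 8 rose and 4 fell, against 11.7% and 4.85% of all tested genes. Among the other actins only ACTA2, smooth muscle actin, was tested, and it rose from 1.78, 1.64 and 1.78 FPKM to 2.49, 2.49 and 2.37 FPKM (log2 fold change 0.33, adjusted p 0.0110), a call lost with DESeq2 (0.0543) and with the abundance trend removed (0.141). ACTA1, ACTG2, POTEE and POTEF had too few counts, and ACTC1, ACTBL2, POTEI and POTEJ had no row.

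Among the other monomer binders, 2 of 4 tested genes rose and 2 fell. With library totals, and likewise with the abundance trend removed, only 1 was lower. PFN4, a profilin known from testis, was low, at 0.25, 0.26 and 0.44 FPKM in NC and 1.15, 1.15 and 0.88 FPKM in siFSCN1, and rose by a log2 fold change of 1.54 (standard error 0.26, adjusted p 4.0e-05). Twinfilin TWF2, a monomer-binding protein with ADF-like domains, fell by 0.82 on the log2 scale and TWF1 by 0.25. TWF1 had a mean of 18.7 FPKM in NC, and tested genes between 10 and 100 FPKM had a median of -0.26. CAP2, the paralog of CAP1, rose by 0.52. CAP1 and CAP2 thus moved in opposite directions, from 48.2 to 37.0 FPKM and from 4.32 to 6.95 FPKM in the means.

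Of the 12 regulators of cofilin, 3 rose and 6 fell, with a median of -0.20. LIMK1, a kinase that inactivates cofilin, had 4.51, 4.58 and 4.74 FPKM in NC and 2.50, 2.00 and 1.91 FPKM in siFSCN1. It fell by 1.28 on the log2 scale with an adjusted p of 1.9e-11. TESK1, another cofilin kinase, rose by 0.99 and the cofilin phosphatase SSH1 by 0.51. The other gene that fell at least 2-fold was CORO1A, a coronin chiefly of blood cells, which was under 1 FPKM in both groups.

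Of the 18 formins, WH2 nucleators and Ena/VASP genes, 7 rose, 5 fell and 6 did not pass, with a median of 0.07. DIAPH1, the formin mDia1, which draws on profilin-bound actin, had 11.27, 11.23 and 11.02 FPKM in NC and 5.68, 4.69 and 5.27 FPKM in siFSCN1 and fell by 1.27 (adjusted p 7.2e-13). FMNL1 moved the other way, from 2.96, 2.60 and 2.91 FPKM to 6.41, 6.86 and 6.93 FPKM, a rise of 1.09 (adjusted p 2.0e-11). The counts of this list changed with scaling, to 11 higher and 2 lower with library totals.

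Among 15 genes for filament end capping and severing, 5 rose, 5 fell and 5 did not pass, with a median of -0.01. CAPG, a capping protein of the gelsolin family, had 29.8, 31.3 and 31.2 FPKM in NC and 10.9, 8.22 and 8.67 FPKM in siFSCN1, a fall of 1.90 on the log2 scale (adjusted p 1.1e-13). SVIL, supervillin, rose by 1.02 (adjusted p 1.3e-10), and AVIL, advillin, rose at least 2-fold but stayed under 1 FPKM.

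Among 14 genes for actin folding, modification and nuclear transport, 5 rose, 8 fell and 1 did not pass, with a median of -0.30. All 6 prefoldin subunits, which carry unfolded actin to the chaperonin, fell, by log2 fold changes of -0.60 to -0.26, a group set apart after the values were seen. All 6 had means between 10 and 100 FPKM, and the median of the 2812 tested genes at that level was -0.26. With library totals 5 of the 6 passed, and likewise with the abundance trend removed. ACTMAP, the protease that trims the start of actin, rose from 4.67, 4.32 and 4.07 FPKM to 10.7, 10.5 and 10.5 FPKM (1.12, adjusted p 7.0e-12), and NAA80, which acetylates that start, fell by 0.85. The actin-oxidising enzymes MICAL1, MICAL2 and MICAL3 all rose, MICAL1 by 1.11 (adjusted p 1.2e-08), under every scaling tried.

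Of 17 tested genes of MRTF, SRF and their targets other than the 10 genes, 11 rose, 1 fell and 5 did not pass, with a median of 0.33. By comparison 35.1% of all tested genes were higher at an adjusted p under 0.05. MRTFA rose by 0.51, MRTFB by 0.59 and SRF by 0.33 on the log2 scale, with adjusted p of at most 1.35e-05, and all 3 stayed higher under each scaling. These regulators are 3 of the 11 that rose. The gene that fell was the target CCN1, by 0.21 on the log2 scale (adjusted p 0.00159), from 5.82 to 5.64 FPKM in the means. Over the scalings, DESeq2 and the trend removal, 10 to 14 of the 17 were higher and 0 to 2 lower. FOS, an immediate early gene, rose from 0.69, 0.68 and 0.81 FPKM to 1.75, 1.90 and 1.69 FPKM (1.12, adjusted p 3.1e-07). MYL9, a myosin light chain, also rose at least 2-fold but stayed under 1 FPKM. VCL (0.045), ZYX (-0.096), CNN2 (0.0090), FHL2 (-0.015) and EGR1 (-0.65) did not pass.

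**Figure D5:**
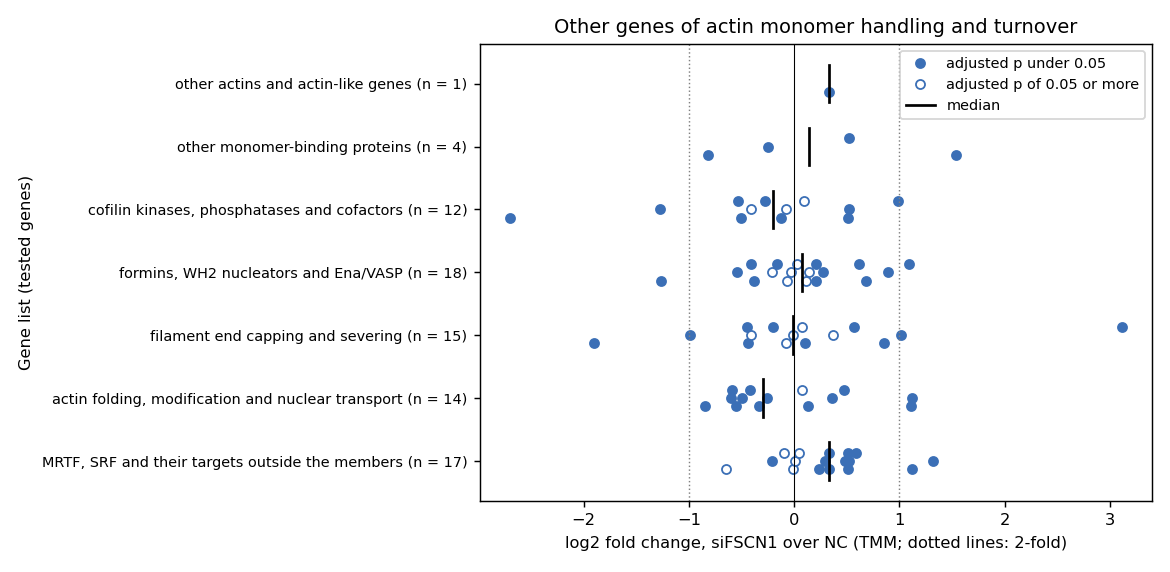
Log2 fold change of siFSCN1 over NC for the tested genes of the 7 lists, with 1 point per gene, filled at an adjusted p under 0.05 and open otherwise, and a black line at the median of each list. The points of the MRTF and SRF list lie mostly to the right of 0, with a median of 0.33, and the folding list holds both falls and rises.

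The genes whose pattern over the 6 libraries was most like that of ACTG1 were TUBA4A, a tubulin (Pearson's r of log2 CPM 0.9999), SFN, the 14-3-3 sigma gene (0.9999), and APH1A (0.9999), among 5308 genes with a mean of at least 5 FPKM. They fell by 1.13, 1.23 and 0.89 on the log2 scale. For ACTB they were TMEM120A (0.981), ATOX1 (0.960) and OSGIN1 (0.948), none of which passed the test in edgeR. The 6 libraries fall into 2 groups, so any gene with a clear difference between groups correlates highly, and these values describe likeness only.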

How the data were processed

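Per the study's methods, the authors trimmed paired reads, aligned them to GRCh38 with HISAT2, allowing 4 mismatches, and kept uniquely mapped reads. The submitters' processing notes name TopHat2 instead. The deposited counts are whole numbers per gene. The deposited FPKM are scaled by the authors to gene length and mapped fragments. The counting program, strand setting and annotation release are not given in the sources used here.

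Genes were filtered with filterByExpr, scaled by TMM and fitted in edgeR 4.0.16 under R 4.3.3, using its quasi-likelihood test and Benjamini-Hochberg adjustment over all 17076 genes. The authors used DESeq2, run here (1.42.0) as an alternative, as was limma 3.58.1 on log2(FPKM + 0.1) and log2(FPKM + 1). A gene changed at least 2-fold also had an adjusted p under 0.05. Standard errors came from the log2 fold change and its F statistic. Ratios were compared with exact two-sided permutation tests. The fit was first tested on simulated counts with few changed genes, as many up as down, and no trend with abundance. Such counts cannot show whether the scaling suits these data. Variation between the libraries of a group beyond counting noise, as edgeR's common coefficient, was 5.94%.

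The 10 genes, the lists and the rule for named genes were chosen with earlier results of these data known. Named genes are the 10, FSCN1, and up to 4 genes per list that changed at least 2-fold with at least 1 FPKM, or else the largest change. Other list genes are named to describe a list and were chosen after their values were seen. Alternatives were RLE, upper quartile and library-total scaling, DESeq2, limma, no filter, a stricter filter (at least 10 counts on average, and 1 CPM in each of 3 libraries), the replicate block, leaving out each library, and an offset that removes each library's trend with abundance.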

Additional observations from a re-analysis of the deposited data

How the results depend on the processing

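ACTG1, PFN1, CFL2 and CAP1 kept their direction and stayed at an adjusted p under 0.05 in 16 of 16 alternatives. The genes near 0 followed the scaling. ACTB was 0.088 with upper quartile scaling, 0.16 with library totals, 0.37 with the abundance trend removed and 0.14 with limma at both pseudocounts. PFN2 was 0.065, 0.13, 0.19, 0.11 and 0.11 under the same alternatives. TMSB4X was 0.18, 0.25, 0.44, 0.23 and 0.23, and passed in all of them. TMSB10 was 0.12, 0.19 and 0.38 under the first 3, passing in each, and -0.013 with RLE, -0.0047 with no filter and -0.024 with DESeq2. Leaving out each library gave -0.042 to 0.034 for TMSB10. DSTN was -0.050 with library totals, -0.071 and -0.070 with limma and 0.11 with the trend removed, and CFL1 was -0.0045 with the trend removed. A scaling moves all genes by 1 amount, and the cause of the abundance trend was not tested.

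Of the 10 genes, 0 were higher in edgeR, where none of the 4 genes that did not fall had an unadjusted p under 0.05. By alternative, 2 were higher with upper quartile scaling, 4 with library totals, 5 with the trend removed and 2 with limma at either pseudocount. Over all tested genes the count changed at least 2-fold was 2820, and 477 with limma on log2(FPKM + 1), where the pseudocount shrinks low genes. Higher and lower calls numbered 1991 and 829, against 2637 and 510 with library totals, 2354 and 629 with upper quartile scaling and 1320 and 1152 with the trend removed, and lower calls 440 with log2(FPKM + 0.1). Changed genes of the 7 lists numbered 12, and 3 with limma on log2(FPKM + 1).

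Libraries of the same number did not deviate together, with correlations of deviations of -0.03, 0.04 and -0.08. A block for the replicate number gave 2827 changed genes (1992 higher, 835 lower), ACTG1 was -1.48, and no call among the 10 genes changed. Counts per exonic kilobase could not move the changes of the ratios between paralogs, since a gene's length cancels in such a change. ACTG1 over ACTB was -1.45 on the log2 scale either way, so this alternative is no test of the ratios.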

Other observations

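Pseudogenes named after the 10 genes took few counts. The 9 named after ACTG1 held 166 counts over the 6 libraries, 64 in NC and 102 in siFSCN1, against 655890 for ACTG1 itself. The 5 named after ACTB held 15 counts. Those at 1 FPKM or more were DSTNP2, at 8.99 FPKM in NC and 9.08 in siFSCN1 (log2 fold change -0.15, adjusted p 0.205 in edgeR), and TMSB4XP8, at 12.7 and 13.2 FPKM (-0.11, adjusted p 0.617).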
